A study of Danio rerio with 2 samples.

Results

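The cells described here are the cranial neural crest cells (NCCs) in which transcripts of *hoxb5a* and *hoxb5b* were counted at least 2 times. They were selected on these measured values, among barcodes with at least 1800 UMIs (unique molecular identifiers, 1 per captured transcript), at most 3000 genes (DMSO) or 3500 genes (YM), and under 5% mitochondrial UMIs. This gave 112 of 3555 kept cells in DMSO (3.15%, exact binomial interval 2.60% to 3.78%) and 129 of 4376 in YM (2.95%, 2.47% to 3.49%), 241 of 7931 in all. They are called *hoxb5* cells below. Their *hoxb5* levels are a consequence of the choice and are given as a description. Fewer such cells and fewer *hoxb5* transcripts per cell would both lower the share, and they cannot be told apart.

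Both libraries came from zebrafish embryos carrying Tg(sox10:mRFP) and Tg(fli1a:EGFP), treated from 16 to 36 hours post fertilization (hpf) with vehicle (DMSO, 10% by volume in the labels, while the study's methods give a lower limit) or with 100 µM YM-254890 (YM), a small molecule inhibitor of the Gq and G11 proteins that act downstream of the Endothelin receptor. At 36 hpf the heads were pooled within each condition, and cells positive for both EGFP and mRFP were sorted and sequenced as single cells. The comparison of YM with DMSO asks what lowered Gq/11 activity does to gene expression in these cells. The study proposes that YM at this dose blocks Gq/11 only in part in wild-type embryos. The *fli1a* driven reporter also marks endothelium, so the gate does not select crest alone. Each condition is 1 library, a difference between them has no replicate check, and no test was made. The 95% intervals given are exact Poisson intervals for levels and exact conditional binomial intervals for ratios, and they cover counting error only.

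Hox genes are arranged in clusters whose order matches the order in which they are used along the body. In cranial crest, cells of the first arch and the frontonasal region carry no Hox transcripts, arch 2 crest uses genes of paralog group 2, and the crest of the posterior arches adds groups 3, 4 and 5. Hox proteins bind DNA together with Pbx, Meis and Pknox proteins, homeodomain cofactors of the TALE class. Retinoic acid, a ligand of nuclear receptors, sets the posterior limit of the head and turns on many of the more posterior Hox genes. The posterior arches form the gill-bearing skeleton of the fish and lie next to the developing heart, and *prdm1a*, *gata5* and *gata6* encode transcription factors used in that region.

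The *hoxb5* cells held 910242 UMIs in DMSO and 1215785 in YM, with a median of 7625 and 8725 per cell, against 5853 and 6498 in the other kept cells. The rule asks for raw counts, so deeper cells meet it more easily. Exactly 2 *hoxb5* UMIs were counted in 56 DMSO and 69 YM cells, 3 or more in 56 and 60, and 1 UMI, just outside the rule, in 100 and 122 further cells. Most *hoxb5* cells had *hoxb5b* alone (43 and 63) or both genes (65 and 58), and few had *hoxb5a* alone (4 and 8). Among cells marked by leukocyte or haemoglobin genes (71 in DMSO, 66 in YM, median 8566 and 9777 UMIs) no cell had a *hoxb5* UMI, which allows a share of up to 4.23% and 4.55%, and in cells marked by frontonasal genes 0.599% and 0.424% had one. The libraries shared 5 barcodes among kept cells and none among *hoxb5* cells.

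The label of posterior arch crest was checked against genes that the rule did not use. *prdm1a* was counted in 94 and 121 cells of the DMSO and YM *hoxb5* cells, respectively, and *gata6* in 14 and 21 cells. Genes of crest mesenchyme (*twist1a*, *twist1b*, *prrx1a*, *prrx1b*, *dlx2a* and *fli1a*) gave a UMI in 109 and 124 cells, with a median of 7 and 9 UMIs per cell. They summed to 959 and 999 CPM, below the 1225 and 1223 CPM of the other kept cells. Of this list, *fli1a* also drives the sorted EGFP reporter. In 5 DMSO and 7 YM cells no UMI of a *twist1* or *prrx1* gene was counted. Markers of endoderm were all at 0, and of the 6 heart and lateral plate markers *nkx2.5*, *tbx5a*, *myl7*, *tnnt2a* and *tcf21* were at 0 in both libraries. The sixth, *mef2cb*, a Mef2 factor gene, was counted 15 and 35 UMIs in 11 and 25 cells, at 16.5 and 28.8 CPM, against 22.0 and 19.1 CPM in cells with *hox3* transcripts and no *hoxb5* and 4.66 and 7.67 CPM in arch 2 cells, groups defined further on. The endothelial gene *kdrl* was counted 23 and 19 UMIs in 20 and 14 cells, at 25.3 and 15.6 CPM, at least 2-fold higher than in the other kept cells (5.24 and 4.80 CPM) and those 2 groups (7.11 and 6.14 CPM, and 2.62 and 2.06 CPM). The other 11 endothelial markers had at most 1 UMI each in DMSO and at most 17 in YM, where 1 cell held 37 endothelial UMIs. Of the epidermal, pigment and leukocyte lists no cell held more than 4 UMIs. Neural markers gave a UMI in 29 and 49 cells and summed to 127 and 99.5 CPM, against 59.6 and 67.5 CPM in the other kept cells. Of the 116 and 121 neural UMIs, 1 DMSO cell held 74 and 4 YM cells held 11 to 16 each, while the median per cell was 0 in both libraries. The higher sums thus came largely from few cells and do not describe the *hoxb5* cells in general. Frontonasal markers were counted in 6 and 8 cells, with at most 8 and 1 UMIs per cell. Arch 1 markers were counted in 15 and 18 cells, with at most 5 and 6 UMIs. Both summed to less than in the other kept cells. The EGFP transcript was at 7408 and 6447 CPM against 7854 and 7034 CPM in the other kept cells and 418 and 368 CPM in the blood-marked cells. The mRFP transcript was counted 0 and 1 UMIs, and at 1.60 and 2.44 CPM in the other kept cells, so it could not be used to check the gate.

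Not every cell fitted the label. By a limit chosen after the data were seen, 1 DMSO and 5 YM *hoxb5* cells held 10 or more UMIs of a neural, an autonomic and glial, or an endothelial marker list. The DMSO cell held 25 UMIs of *elavl3* and 17 of *neurod1*, both neuronal genes. In YM, 4 cells held 11 to 16 neural marker UMIs, 2 of them with 7 and 15 UMIs of *phox2bb*, a gene of autonomic and hindbrain neurons. The other YM cell held 16 UMIs of the endothelial cadherin *cdh5* and 157 of EGFP. None of the 6 had a UMI of a *twist1* or *prrx1* gene. Without them 111 DMSO and 124 YM cells remained. For lists compared between YM and DMSO, both counts are given where leaving them out changed how many genes passed the 1.5-fold limit. List counts against other cells were not recomputed without them. Over all genes, the counts at least 2-fold higher and lower than in the other kept cells went from 187 and 1262 to 182 and 1368.

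Of 48 Hox genes, 12 had at least 20 UMIs in the *hoxb5* cells. The highest was *hoxb3a*, at 468 CPM in DMSO and 418 CPM in YM, where CPM is UMIs per 1000000 of the summed UMIs of the group. Group 4 followed with *hoxd4a* at 286 and 242 CPM and *hoxa4a* at 263 and 193 CPM, while *hoxb4a* was at 14.3 and 16.5 CPM. The selecting genes themselves were at 247 and 226 CPM (*hoxb5b*) and 113 and 75.7 CPM (*hoxb5a*). Lower levels were seen for the group 1 genes *hoxc1a* (82.4 and 73.2 CPM) and *hoxb1b* (78.0 and 92.1 CPM), for *hoxb2a* (71.4 and 57.6 CPM), and for *hoxd3a* (64.8 and 66.6 CPM) and *hoxc3a* (41.7 and 25.5 CPM). The Hox genes counted thus spanned groups 1 to 5, and the other 36 Hox genes gave 9 UMIs or fewer in each library, among them *hoxb6a* with 3 and 5 UMIs and *hoxc6a* with 0 and 0 UMIs.

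Set against all other kept cells, 187 of 11630 genes (1.61%) were at least 2-fold higher in the *hoxb5* cells in both libraries and 1262 (10.9%) at least 2-fold lower. Of 13 Hox genes compared, 11 were higher and 1 was lower. Hox genes vary together along the body axis, so this count follows largely from the choice and is a description. The exception was *hoxa2b*, a gene of arch 2 crest, at 22.0 and 30.4 CPM in *hoxb5* cells, 61.7 and 65.4 CPM in the other cells and 271 and 249 CPM in cells with at least 2 UMIs of group 2 genes and none of *hoxb3a*, *hoxd3a* or *hoxb5*, called arch 2 cells below. *hoxb2a* did not share this pattern, with 71.4 and 57.6 CPM in *hoxb5* cells and 53.4 and 51.2 CPM in the other cells. The arch 2 cells were chosen on *hoxa2b* plus *hoxb2a*, so their high *hoxa2b* level follows from that choice.

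**Figure D1:**
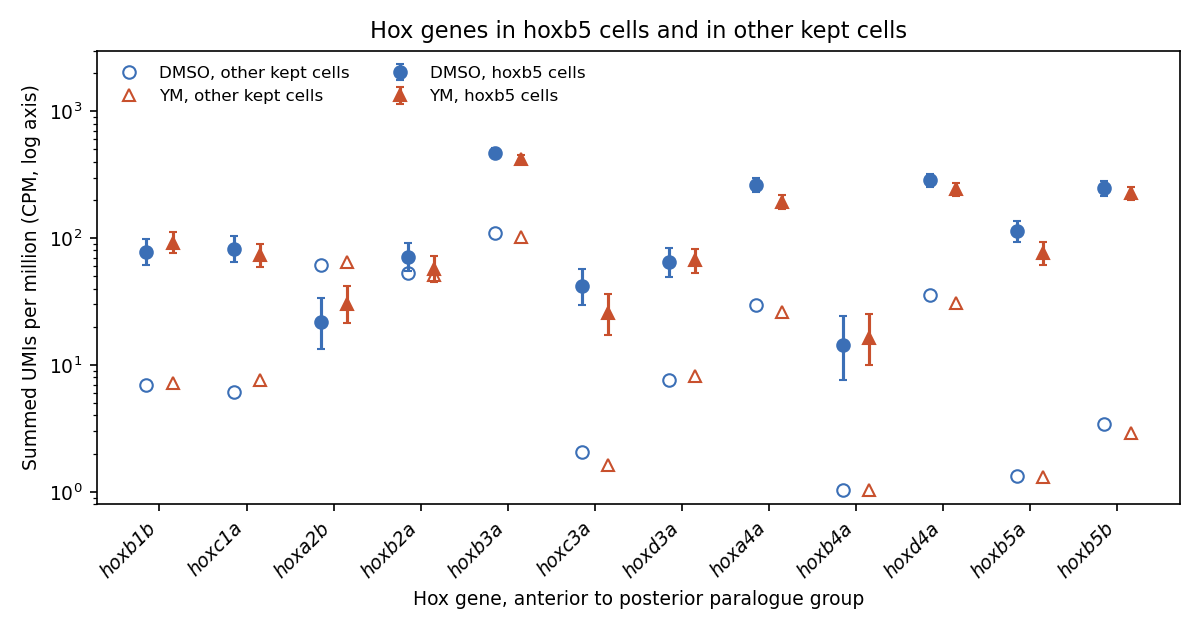
Levels of the 12 Hox genes with at least 20 UMIs, in CPM on a log axis, in hoxb5 cells and in the other kept cells of each library. Error bars are 95% Poisson intervals of the hoxb5 cells and cover counting error only. hoxb3a, hoxd4a, hoxa4a and hoxb5b stand highest in hoxb5 cells, and hoxa2b is the gene whose level is lower in hoxb5 cells than in the others.

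Genes of the Hox cofactors and of retinoic acid handling were examined next, as lists. Of 11 TALE genes compared with the other kept cells, 4 were at least 2-fold higher in both libraries and 2 lower, beside 1.61% and 10.9% of all genes. *meis3* was at 276 and 218 CPM against 33.0 and 30.4 CPM, *meis2a* at 365 and 333 CPM against 93.4 and 93.5 CPM, *pbx1a* at 208 and 242 CPM against 47.3 and 50.5 CPM, and *pbx1b* at 20.9 and 24.7 CPM against 3.78 and 4.22 CPM. The broadly used *pbx4*, in contrast, was at 243 and 239 CPM in *hoxb5* cells and 253 and 258 CPM elsewhere. The cofactors thus differed among themselves in whether their transcripts were concentrated in these cells.

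Of 20 retinoic acid genes, 6 were higher and 4 lower, beside the same 1.61% and 10.9%. The receptor gene *raraa* was at 309 and 335 CPM against 43.8 and 49.6 CPM in the other kept cells, and the receptor gene *rarga* was at 36.3 and 51.0 CPM against 72.5 and 77.9 CPM, within the 2-fold limit. Among the higher genes were 3 of enzymes that lower retinoic acid. *cyp26a1*, which oxidises it, was at 113 and 103 CPM against 9.49 and 11.0 CPM. *dhrs3b* and *dhrs3a*, whose products return retinaldehyde to retinol, were at 204 and 218 CPM and at 40.6 and 31.3 CPM against 23.0 and 28.9 CPM and 8.64 and 7.96 CPM. The other 2 higher genes, *aldh1a2* and *rdh10a* of retinoic acid synthesis, had only 4 and 3 UMIs and 3 and 6 UMIs. Of the 4 lower genes, *cyp26b1*, a further oxidising enzyme, was at 9.89 and 3.29 CPM against 24.8 and 28.2 CPM, the binding protein gene *crabp2b* at 2.20 and 8.23 CPM against 56.4 and 54.1 CPM, and *cyp26c1* and the receptor gene *rargb* were at 0. *cyp26a1* was counted in 55 and 54 cells, and not in 57 and 75, whereas *raraa* was counted in 95 and 106 cells.

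Among transcription factors other than Hox, *prdm1a* was the most abundant of the leading genes, with 396 and 538 UMIs. Its level was 435 CPM in DMSO (393 to 480.1) and 443 CPM in YM (406 to 482), 11.0-fold in DMSO and 10.8-fold in YM above the other kept cells. After thinning every cell to 1800 UMIs, 49.1% and 52.7% of *hoxb5* cells had a *prdm1a* UMI, against 3.05% and 4.07% of the other cells and 1.41% and 7.58% of the blood-marked cells. Unthinned, the shares were 83.9% and 93.8%, 7.20% and 8.05% and 8.45% and 10.6%. The share in *hoxb5* cells was thus above that of blood-marked cells, whose median depth was 8566 and 9777 UMIs against 7625 and 8725.

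The GATA factor genes *gata5* and *gata6* were sparser, with 65 and 64 UMIs in 44 and 43 cells for *gata5* and 18 and 25 UMIs in 14 and 21 cells for *gata6*. Neither was counted in a blood-marked cell. Their levels were 71.4 and 52.6 CPM and 19.8 and 20.6 CPM, against 3.68 and 3.43 CPM and 1.98 and 1.85 CPM in the other kept cells. At least 1 of the GATA pair was seen in 51 DMSO and 55 YM cells, of which 43 and 53 also had *prdm1a*, and 10 and 6 cells had none of the 3 genes. With so few UMIs a cell without *gata5* or *gata6* may still express it.

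Of the 17 genes of a list of posterior arch and mesenchyme transcription factors that could be compared, 9 were higher and 3 lower than in the other cells, beside 1.61% and 10.9% of all genes. The Iroquois genes *irx5a* and *irx6a* were at 141 and 132 CPM and 34.1 and 28.0 CPM against 20.2 and 20.2 CPM and 3.12 and 4.91 CPM. *zbtb16b*, a zinc finger repressor gene, was at 118 and 109 CPM against 24.0 and 31.2 CPM, and *sall1a* at 37.4 and 29.6 CPM against 5.38 and 5.39 CPM. *hand2*, the ventral arch factor downstream of Endothelin signaling, was among the lower genes with *foxc1b* and *tfap2b*, at 23.1 and 32.1 CPM against 160.4 and 101 CPM. The higher genes also held *tshz1* and *znf503*, at 28.6 and 42.8 CPM and 103 and 106 CPM against 7.79 and 7.55 CPM and 49.2 and 52.8 CPM.

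By the largest ratios to the other cells, genes counted in at least 10% of *hoxb5* cells were led, after *hoxb5b* and *hoxb5a*, by *ripply3*, the gene of a repressor that binds T-box proteins, at 28.6 and 22.2 CPM against 1.794 and 1.304 CPM. Beyond the Hox, GATA, retinoic acid and *prdm1a* genes already given, the 20 leading genes held *gpc1b* (a glypican, 31.9 and 38.7 CPM), *sox12* (a SoxC transcription factor, 30.8 and 27.1 CPM), *dkk2* (a secreted Wnt modulator, 23.1 and 18.1 CPM), *arhgef28a* (a guanine nucleotide exchange factor, 25.3 and 14.0 CPM), *gpm6aa* (a membrane glycoprotein, 64.8 and 62.5 CPM) and *hs3st3b1a* (a heparan sulfate sulfotransferase, 28.6 and 16.5 CPM). In the other cells these 6 genes were at 1.37 to 7.89 CPM. Of the 20 leading genes, 8 were Hox genes, the selecting *hoxb5a* and *hoxb5b* among them, so this count follows largely from the choice.

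**Figure D2:**
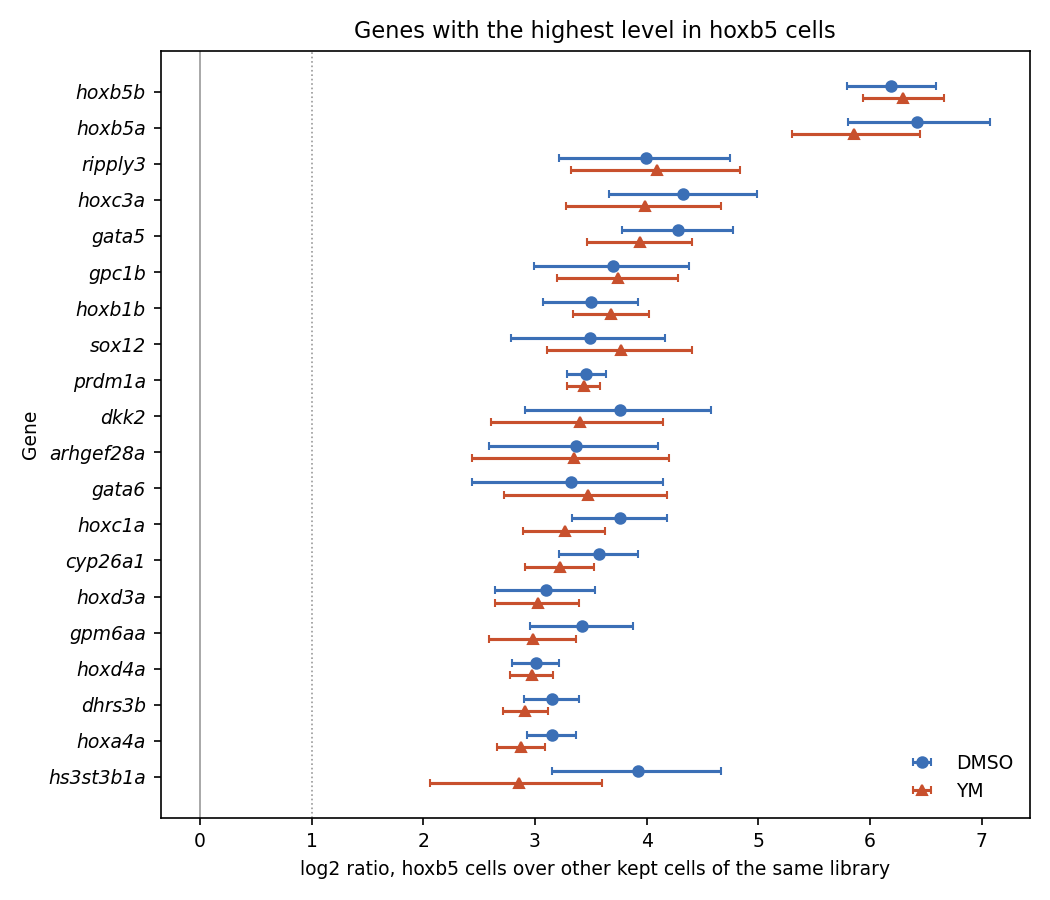
The 20 genes with the largest ratio of hoxb5 cells to other kept cells, by the smaller of the 2 libraries, as log2 ratios for DMSO and YM. hoxb5a and hoxb5b chose the cells and are shown for scale. The ranking picked genes high in both libraries, so that every gene lies above 0 follows from the choice.

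The lowest genes, ranked among those counted in at least 10% of other cells, included genes of frontonasal and periocular crest. *bmp5*, *enpp6*, *lmx1bb* and *lratb.1* gave 0 UMIs in the *hoxb5* cells of both libraries. With 3 UMIs per group as the floor, *bmp5*, a Bmp ligand gene, was at least 12.1-fold in DMSO and 13.6-fold in YM lower, and *lmx1bb*, a frontonasal and periocular LIM homeodomain gene, at least 10.0-fold in DMSO and 13.4-fold in YM lower. The type I collagen gene *col1a1a* was at 8.79 and 14.0 CPM against 385 and 416 CPM, with 8 and 17 UMIs in 4 and 8 cells. All 14 genes of a list of the intermediate domain of arches 1 and 2, *dlx4a* and *dlx4b* among them, were at least 2-fold lower, where 10.9% of all genes were.

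Which of these differences set *hoxb5* cells apart from their nearest neighbours was examined with 2 further groups. Cells with at least 2 UMIs of *hoxb3a* plus *hoxd3a* and no *hoxb5* UMI (398 and 496 cells) are called *hox3* cells. Some may be *hoxb5* cells whose transcripts were missed, which brings the groups closer together. The arch 2 cells numbered 494 and 678. Blood cells were not taken out of either group. Leukocyte markers summed to 566 CPM in DMSO and 4.55 CPM in YM *hox3* cells, and to 20.4 and 3.93 CPM in arch 2 cells. Erythroid markers summed to 7.73 and 12.7 CPM in *hox3* cells, and to 9.33 and 1635 CPM in arch 2 cells. Against *hox3* cells, 76 of 7323 genes (1.04%) were at least 2-fold higher in both libraries and 202 (2.76%) lower. Of the lists given above, TALE genes then held 4 higher and 1 lower of 10, and retinoic acid genes 4 and 2 of 12. The list of posterior arch and mesenchyme transcription factors held 5 higher and 3 lower of 16. Against arch 2 cells, 133 of 7421 (1.79%) were higher and 282 (3.8%) lower. Median UMIs were 7690 and 8430.5 in *hox3* cells and 6704 and 7518.5 in arch 2 cells.

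Several genes differed stepwise between these groups. *prdm1a* was at 2.91 and 2.99 CPM in arch 2 cells, 113 and 141 CPM in *hox3* cells and 424 and 349.8 CPM in cells with 1 *hoxb5* UMI, close to the 435 and 443 CPM of *hoxb5* cells. *raraa* took the values 4.08 and 4.86 CPM, 109 and 145 CPM and 282 and 268 CPM in the same groups and 309 and 335 CPM in *hoxb5* cells. In the same order of groups *cyp26a1* was at 0 and 0.561 CPM, 19.5 and 28.0 CPM, 109 and 85.9 CPM and 113 and 103 CPM. *meis3* followed with 18.4 and 16.1 CPM, 75.8 and 86.3 CPM, 285 and 181 CPM and 276 and 218 CPM. For these 4 genes the cells with 1 *hoxb5* UMI lay nearer to the *hoxb5* cells than to the *hox3* cells in both libraries.

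Genes of the ventral and Endothelin dependent program showed another order, being high in both arch 2 and *hox3* cells and low in *hoxb5* cells. *hand2* was at 282 and 191 CPM in arch 2 cells, 309.6 and 199 CPM in *hox3* cells and 23.1 and 32.1 CPM in *hoxb5* cells. *dlx5a*, a distal-less gene of the ventral arch, was at 228 and 137 CPM, 242 and 124 CPM and 7.69 and 2.47 CPM. *barx1*, a homeobox gene of cartilage precursors, was at 261 and 159 CPM, 329 and 153 CPM and 15.4 and 9.87 CPM. All 7 Dlx genes compared were lower than in *hox3* cells, where 2.76% of all genes were. *dlx2a*, which is used in arch crest more widely, was the nearest at 116 and 93.8 CPM against 239.7 and 193 CPM.

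**Figure D3:**
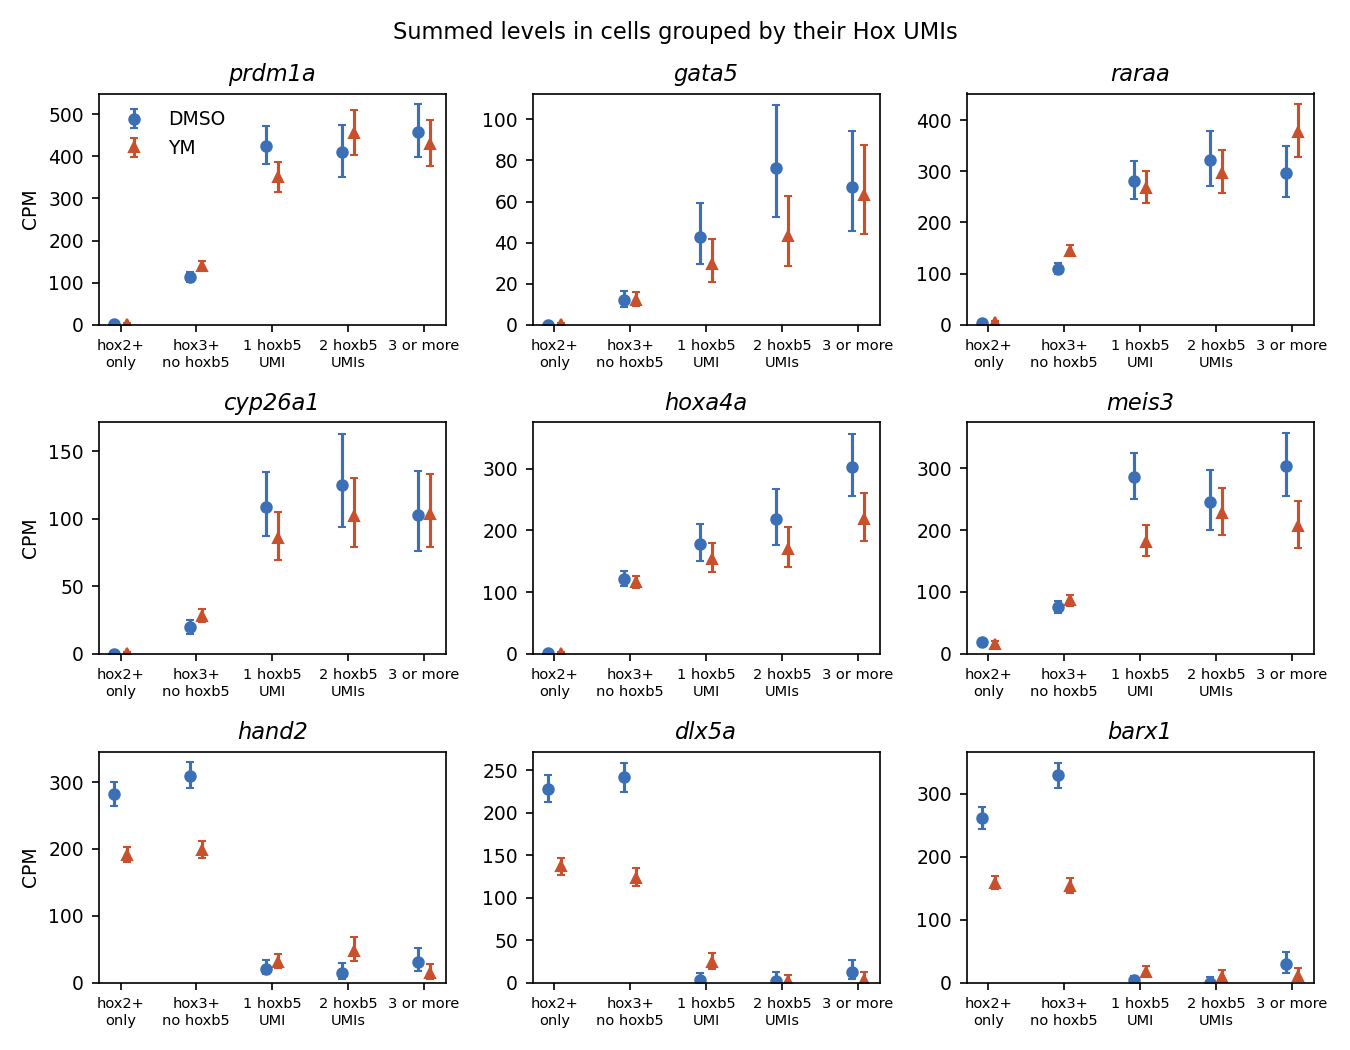
Summed levels in CPM for 9 genes (panels) in cells grouped by their Hox UMIs: arch 2 cells, hox3 cells, cells with 1 hoxb5 UMI, and hoxb5 cells with 2 or with 3 or more UMIs. Markers show the DMSO and the YM library, and bars are 95% Poisson intervals for counting error. prdm1a, gata5, raraa, cyp26a1, hoxa4a and meis3 are high from 1 hoxb5 UMI on, and hand2, dlx5a and barx1 are low there.

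The receptors that would receive the Endothelin signal were sparse in *hoxb5* cells. *ednraa* was at 19.8 and 20.6 CPM against 44.8 and 52.1 CPM in *hox3* cells, and *ednrab* at 6.59 and 18.9 CPM against 50.1 and 81.0 CPM. The G protein gene *gna11b* was at 15.4 and 18.9 CPM and differed little from the 17.6 and 18.7 CPM of *hox3* cells. Of 13 genes of skeletogenic mesenchyme, 7 were at least 2-fold lower than in the other kept cells, beside 10.9% of all genes, among them the chondrogenic factor gene *sox5* (23.1 and 22.2 CPM against 57.4 and 63.2 CPM) and the crest repressor gene *snai2* (6.59 and 2.47 CPM against 48.6 and 47.1 CPM). *twist1a*, *prrx1a* and *prrx1b* were not among these, with *twist1a* at 296 and 316 CPM against 395 and 422 CPM. Against *hox3* cells, 5 of 11 genes of the skeletogenic list were lower and 0 higher, beside 2.76% and 1.04% of all genes.

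Of the signaling lists, Fgf genes held 2 higher and 4 lower of 19, beside 1.61% and 10.9% of all genes. *etv5a*, an Ets factor gene induced by Fgf signaling, was at 357 and 336 CPM against 60.1 and 66.5 CPM, and the ligand gene *fgf10a* at 40.6 and 51.0 CPM against 6.70 and 7.75 CPM. Other Fgf targets did not share this. *dusp6* was at 95.6 and 108 CPM against 92.0 and 97.3 CPM and *etv5b* at 71.4 and 98.7 CPM against 72.3 and 87.9 CPM. Of 22 Bmp genes 10 were lower and 1 was higher, beside the same 10.9% and 1.61%. The Bmp target *id1* was at 1103 and 1131 CPM against 1608 and 1431 CPM, within the 2-fold limit. Of 11 Wnt genes, 2 were higher and 3 lower, beside the same shares. The higher genes were the secreted antagonists *sfrp2* (35.2 and 37.8 CPM) and *sfrp5* (30.8 and 28.0 CPM), against 13.3 and 16.0 CPM and 10.7 and 13.9 CPM. The lower genes were the Wnt target *axin2* (24.2 and 14.8 CPM against 52.6 and 61.0 CPM), the ligand gene *wnt5b* (3.30 and 8.23 CPM against 16.8 and 19.8 CPM) and *lef1*, a factor of the Wnt response, with 2 and 0 UMIs. Against *hox3* cells, Fgf genes held 3 higher and 1 lower of 17, Bmp genes 1 and 5 of 16, and Wnt genes 1 and 0 of 8. In that comparison 1.04% of all genes were higher and 2.76% lower.

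How far the *hoxb5* cells differed from one another was measured per gene. The dispersion index used here is the variance of a gene's UMIs over the cells, divided by the variance that counting at each cell's depth would give. Over 3310 genes its median was 1.07 in DMSO and 1.09 in YM, without the 6 off-type cells. It was highest for the histone genes *zgc:153409* (13.0 and 13.5) and *hist1h4l* (8.92 and 9.57), and high for *top2a* (4.42 and 4.34) and *mki67* (3.39 and 3.80), both genes of dividing cells. Other cell cycle genes differed among themselves. *rrm2* (3.97 and 3.30), *pcna* (2.91 and 2.91) and *plk1* (2.34 and 2.50) were well above the median. *aurkb* at 1.21 and 1.41 and *ccnb3* at 0.96 and 0.98 were nearer to it. The Bmp target *id1* was also uneven (5.91 and 5.09). Regional genes spanned a range, with *hoxd4a* at 1.08 and 1.36, *raraa* at 1.21 and 1.93, *prdm1a* at 2.38 and 1.65, *cyp26a1* at 1.92 and 2.66, *dlx2a* at 2.47 and 2.85, and *hand2* at 1.59 and 4.36. EGFP, the transcript of the sorted reporter, stood at 5.71 and 5.35, and the ribosomal protein gene *rpl38* at 5.66 and 6.19. At like relative variation between cells, the index rises with a gene's level. Genes of unlike level cannot be ranked by it, such as EGFP (6743 and 7681 UMIs without off-type cells) and *hand2* (21 and 38 UMIs).

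YM was then compared with DMSO within the *hoxb5* cells. Of 5519 genes with at least 20 UMIs over both libraries, 414 (7.5%) were at least 1.5-fold higher and 480 (8.7%) at least 1.5-fold lower in YM, 894 (16.2%) in all, and the median log2 ratio of YM to DMSO was −0.03. With TMM scaling the counts were 579 higher and 376 lower, so that 60.6% of the genes past the fold were higher, against 46.3% with scaling to total UMIs, and the median was 0.05. Counting noise alone can put genes of 20 UMIs past 1.5-fold. In the other kept cells, which hold far more UMIs, 4.6% were higher and 6.61% lower.

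Several regional genes of the *hoxb5* cells were at similar levels under YM, while *hoxa4a* and *meis3*, given below, had intervals under 0. *prdm1a* had a log2 ratio of 0.02 (−0.17 to 0.22), *raraa* 0.12 (−0.11 to 0.34), *cyp26a1* −0.14 (−0.53 to 0.25), *etv5a* −0.09 (−0.30 to 0.13) and *meis2a* −0.13 (−0.34 to 0.08). None of the 10 TALE genes and none of the 9 retinoic acid genes passed 1.5-fold, beside 16.2% of all genes. Without the off-type cells 1 retinoic acid gene did, *rdh10b*, with 16 and 15 UMIs and a log2 ratio of −0.51 that became −0.70. Nor was the limit passed by *gata6*, at 0.06 (−0.88 to 1.02), while *gata5* was at −0.44 (−0.96 to 0.08). Of the 12 Hox genes, 8 were below 0, with a list median of −0.17, beside −0.03 over all genes. The 8 include the selecting genes *hoxb5a* (−0.58) and *hoxb5b* (−0.13), whose counts the rule used, so this count and median are a description. Past 1.5-fold was 1 Hox gene, *hoxc3a* at −0.71 (−1.44 to 0.01), beside 16.2% of all genes. Without the off-type cells 9 were below 0 and 2 past the limit, the second being the selecting gene *hoxb5a*, at −0.58 with them and −0.67 without. *hoxa4a* was at −0.44 (−0.71 to −0.18), with 239 and 235 UMIs, and *meis3* at −0.34 (−0.59 to −0.08). In *hox3* cells *hoxa4a* was at −0.07 and *meis3* at 0.19.

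Of the 15 posterior transcription factor genes, 1 was past the fold, beside 16.2% of all genes. This was *mef2cb*, with 15 and 35 UMIs and a log2 ratio of 0.80 (−0.11 to 1.78). Its ratio was 0.50 without the off-type cells, where none of the 15 was past the fold. *hand2*, the ventral factor, gave 21 and 39 UMIs in 13 and 16 cells and a log2 ratio of 0.48 (−0.33 to 1.31), against −0.67 (−0.74 to −0.60) in the other kept cells and −0.56 (−0.69 to −0.43) in arch 2 cells. In cells with 3 or more *hoxb5* UMIs its ratio was −1.16, on the other side of 0, so no direction can be given. *dlx1a* was at −1.11 (−2.04 to −0.21), with 29 and 18 UMIs, and *dlx2a* at −0.31 (−0.71 to 0.08). *dlx5a* and *dlx6a* had 7 and 3 UMIs and 6 and 2 UMIs, too few to compare. In the arch 2 cells *dlx5a* was at −0.73 (−0.88 to −0.59) and *dlx6a* at −1.84 (−2.14 to −1.55). These ventral genes, lower under YM in arch 2 cells, were thus hardly measured in *hoxb5* cells in either library.

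The highest ratio among genes of at least 50 CPM and 20 UMIs in each library was that of *her9*, a transcriptional repressor gene of the Hairy family and a dorsal patterning gene of the arches. It was counted 53 and 187 UMIs in 38 and 82 cells, at 58.2 CPM in DMSO (43.6 to 76.2) and 154 CPM in YM (133 to 178), a log2 ratio of 1.40 (0.95 to 1.87). After thinning, 7.14% and 21.7% of cells had a *her9* UMI, and no blood-marked cell did. Unthinned, the shares were 33.9% and 63.6%, and 0% and 6.06% in blood-marked cells. The same direction was seen outside the *hoxb5* cells, with 1.06 (0.96 to 1.15) in the other kept cells, 1.11 (0.84 to 1.38) in *hox3* cells and 1.52 (1.29 to 1.76) in arch 2 cells, with the *hox3* and arch 2 cells counted among the other kept cells.

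Its relative *her6* was counted 170 and 400 UMIs in 72 and 106 cells, at 187 and 329 CPM, with a log2 ratio of 0.82 (0.55 to 1.08). Of the *hoxb5* cells, 20.5% in DMSO and 44.2% in YM held 3 or more *her6* UMIs, while the thinned shares of cells with any were 34.8% and 36.4%. *her6* was at 0.58 in the other kept cells and 0.45 in *hox3* cells. *hey1*, a further dorsal repressor gene, was counted 18 and 45 UMIs and had a log2 ratio of 0.90 (0.09 to 1.78). The Notch ligand gene *jag1b* was counted 9 and 28 UMIs, at 1.22 (0.10 to 2.49), or 0.95 without the off-type cells.

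**Figure D4:**
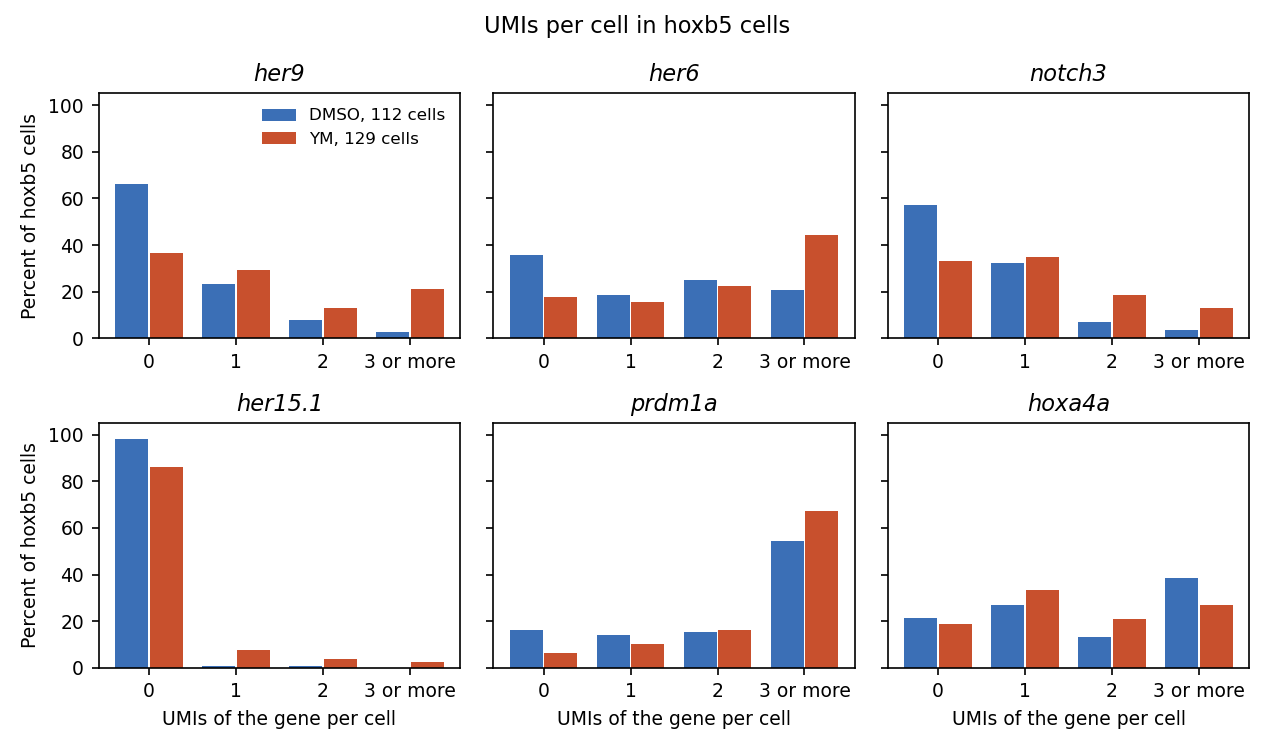
Shares of hoxb5 cells (percent, vertical axis) with 0, 1, 2 or 3 and more UMIs of 6 genes, for 112 DMSO and 129 YM cells, unthinned. For her9 the share of cells with no UMI was 66.1% in DMSO and 36.4% in YM, for notch3 57.1% and 33.3%, while prdm1a and hoxa4a were counted in most cells of both libraries.

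The receptor gene *notch3* was counted 73 and 170 UMIs in 48 and 86 cells, at 80.2 and 139.8 CPM, a log2 ratio of 0.80 (0.40 to 1.22) and of 0.68 without the off-type cells, which held 15 of its 170 UMIs in YM. Elsewhere it was at 0.07 (0.00 to 0.14) in the other kept cells, −0.09 (−0.25 to 0.07) in *hox3* cells and 0.13 (−0.04 to 0.30) in arch 2 cells. The level of *notch3* in DMSO *hoxb5* cells (80.2 CPM) was below that of the other kept cells (129 CPM) and in YM close to it (139.8 and 136 CPM). Thinned shares were 10.7% and 26.4% in *hoxb5* cells and 20.4% and 19.4% in the other kept cells. The intervals of *hoxb5* and *hox3* cells did not overlap, but with 1 library per condition the difference was not tested. With a threshold of 1 *hoxb5* UMI the ratio of *notch3* was 0.41, under the 1.5-fold limit, and with a threshold of 3 it was 0.97.

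Across the Notch list, 10 of 19 genes were at least 1.5-fold higher in YM and none lower, beside 7.5% and 8.7% of all genes, with a median log2 ratio of 0.75. This count depended on the off-type cells, and without them 6 were higher and 2 lower and the median was 0.20. Under the other scalings the median was 0.60 to 0.83. The Notch target *her15.1* was counted 3 and 48 UMIs, but 29 of the 48 UMIs in YM lay in the 5 off-type cells. All 22 UMIs of *her4.2* in YM and 15 of the 22 of *her15.2* lay there too. The *her15* and *her4* genes have near-identical copies, so the split of reads between them is uncertain. In contrast, 2 of the 187 *her9* and 9 of the 400 *her6* UMIs in YM came from off-type cells.

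**Figure D5:**
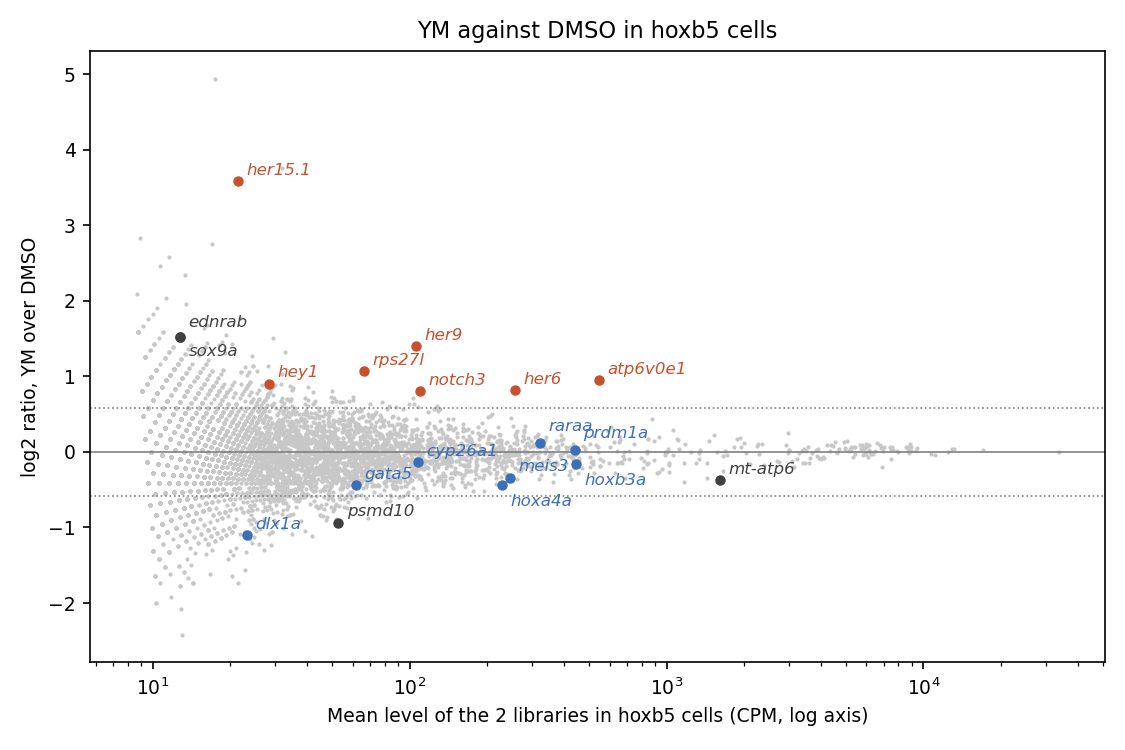
Log2 ratio of YM to DMSO in hoxb5 cells (vertical axis) against the mean CPM of both libraries (horizontal log axis) for genes with at least 20 UMIs, with dotted lines at 1.5-fold; genes with no UMI in 1 library have no finite ratio and are not drawn. her9, her6 and notch3 lie above the spread of genes of like level, while prdm1a, raraa, hoxb3a and cyp26a1 lie near 0.

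The 10 highest genes further held *rps27l* (1.07 (0.53 to 1.63)), a ribosomal protein gene, and *atp6v0e1* (0.95 (0.77 to 1.13)), a subunit gene of the vacuolar proton pump counted 338 and 871 UMIs. *atp6v0e1* had like values elsewhere, 0.91 in the other kept cells and 0.96 in *hox3* cells. Also among them were *arl14ep* (0.73), *trir* (0.72), *znf318* (0.68) and *cachd1* (0.68). In the other kept cells *arl14ep* was at −0.23, *trir* at −0.02, *znf318* at 0.01 and *cachd1* at 0.06. The 10 lowest ran from *psmd10* (−0.94 (−1.53 to −0.36)), a proteasome assembly gene, to *bcl2l10* (−0.69 (−1.27 to −0.11)), a gene of the Bcl2 family, and also held *adrm1* (−0.72), the gene of a ubiquitin receptor of the proteasome, *pdia6* (−0.74), a protein disulfide isomerase gene, and *polr2j* (−0.71), an RNA polymerase II subunit gene. Selecting the extremes of 1689 ranked genes favours those that counting noise moved.

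Beyond single genes, general gene groups were examined. Of 17 genes of the G2 and M phases, 16 were below 0, or 15 with TMM scaling, with a median log2 ratio of −0.23 and none past the fold. Their summed UMIs had a median of 21.59 per 10000 UMIs in DMSO and 15.12 in YM *hoxb5* cells, with quartiles of 2.42 to 45.4 and 2.10 to 41.5, and of 10.3 and 6.32 in the other kept cells. S phase genes had a median of 0.12 with 2 of 16 past the fold, *cdc6* (0.89) and *mcm4* (0.63), where 16.2% of all genes were. With a threshold of 1 *hoxb5* UMI that median was −0.08 and none passed. With a threshold of 3 it was 0.34 and 6 were higher, while 5 of the G2 and M genes were then lower. At that threshold, of 3772 genes with at least 20 UMIs, 8.17% were higher and 11.6% lower. All 13 mitochondrially encoded genes were below 0 (11 with TMM scaling), with a median of −0.14, and 32 of 39 proteasome genes (30 with TMM scaling), with a median of −0.25. In *hox3* cells the medians were −0.32 for G2 and M genes, −0.20 for mitochondrial and −0.29 for proteasome genes.

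The study listed 14 genes as differing in its cluster of arches 3 to 7, a list chosen on these same libraries and so no independent evidence of direction. In *hoxb5* cells 4 of the 14, *her15.1*, *her9*, *atp6v0e1* and *her6*, were at least 1.5-fold higher in YM and none lower, beside 7.5% and 8.7% of all genes. Among the rest were *h3f3d*, a histone gene (0.43 (0.30 to 0.57)), and *rsl24d1* (0.33 (0.17 to 0.49)) and *ddx21* (0.34 (0.08 to 0.60)) of ribosome assembly. The rest also held *hmgb1b* (−0.40 (−0.61 to −0.19)) and a gene of the respiratory chain, *cox5ab* (−0.43 (−0.70 to −0.16)). The list's median was 0.30 in *hoxb5* cells, 0.27 in the other kept cells and 0.29 in arch 2 cells. Of 15 immediate early genes 3 were higher, *fosl1a* (0.88), *ier2b* (0.86) and *junba* (0.64), and 1 was lower, *junbb* (−0.73), beside the same shares.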

How the data were processed

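Single-cell RNA-seq was measured in 2 libraries, a DMSO and a YM library of NCCs, grouped by their treatment labels. The authors deposited raw UMI counts of 25434 features in 6794880 barcodes per library, with no filter on cells and no normalization. Reads were aligned to GRCz11, and the submitters' processing notes name Cell Ranger 5.0.1 and Seurat 4.3.0, while the count files' header gives Cell Ranger version 4. The libraries held 25340682 (DMSO) and 33649382 (YM) UMIs, and 533859 and 726928 barcodes had at least 1 UMI.

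Barcodes were kept at 1800 UMIs or more, at most 3000 (DMSO) or 3500 (YM) genes and under 5% mitochondrial UMIs. No doublet caller was run. UMIs were summed over the cells of a group and scaled to its total (CPM). The 545 symbols shared by several gene IDs were summed. Python 3.11.15 with numpy 2.4.6, scipy 1.17.1, pandas 2.3.3 and matplotlib 3.10.9 was used, and R 4.3.3 with edgeR 4.0.16 for TMM factors alone. Scripts were tested on simulated data.

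The cells and gene lists were chosen with earlier results of these data known. YM was compared with DMSO for genes with at least 20 UMIs over both libraries, and a 1.5-fold ratio was used as the limit. The *hoxb5* cells were compared with other cells at a 2-fold limit in both libraries. Where a count was 0, a floor of 3 UMIs per group was used for folds and for shares. Named genes were the Hox genes, those of the lists, the 10 highest and 10 lowest ratios of YM to DMSO among genes with 20 UMIs in each library and a mean of 50 CPM, and the 20 highest and 10 lowest ratios to other cells among genes counted in 10% of the cells. Some genes these rules rank are not reported here. The genes given for their dispersion, *rpl38* among them, and *kdrl*, EGFP and mRFP were named after their values were seen. *hoxa3a* was not used here, so *hox3* cells rest on *hoxb3a* and *hoxd3a*. Blood-marked cells held at least 10 UMIs from 3 leukocyte genes, or 10% haemoglobin UMIs.

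Alternatives were *hoxb5* thresholds of 1 and 3, a minimum of 3500 UMIs, equal or no upper gene limits, a 10% mitochondrial limit, thinning, other gene filters, TMM factors, per-cell means and, chosen after seeing the data, leaving out off-type cells. Where list counts were recomputed, the genes stayed those with at least 20 UMIs over both libraries under the main rule.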

Additional observations from a re-analysis of the deposited data

Results flagged for a closer look

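For 2 genes the ratio of YM to DMSO in *hoxb5* cells and in arch 2 cells lay on opposite sides of 0, each with an interval that did not reach 0. *arl14ep* had a log2 ratio of 0.73 in *hoxb5* cells, with 41 and 91 UMIs in DMSO and YM, and −0.31 in arch 2 cells. With a threshold of 1 *hoxb5* UMI the value in *hoxb5* cells was 0.15. *sox9a*, a gene of cartilage precursors, had a log2 ratio of 1.52 in *hoxb5* cells, with 6 and 23 UMIs, and −0.58 in arch 2 cells. Neither difference was tested, since each condition is 1 library, and the many genes examined would give some such pairs by counting noise.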

How the results depend on the processing

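The share of kept cells that are *hoxb5* cells was set by the rule: a threshold of 1 UMI gave 5.96% (DMSO) and 5.74% (YM), a threshold of 3 gave 1.58% and 1.37%, and the rule after thinning to 1800 UMIs gave 0.534% and 0.388%. Other limits on UMIs, genes or mitochondrial share, or leaving out off-type cells, moved it by less than its interval. Of the counts of genes past 1.5-fold between YM and DMSO, a filter of 50 UMIs gave 107 higher and 124 lower, and requiring 1 UMI in each library gave 1341 and 1841, since these change how many genes are compared. Against other cells, the counts of 2-fold genes were 76 higher and 202 lower than in *hox3* cells, and 282 lower than in arch 2 cells. For ratios of named genes, 598 of the finite recomputed values stayed within counting error, 11 moved and 1 reversed. Only genes past 1.5-fold under the main rule could count as reversed, and smaller ratios changed sign as well. With a threshold of 3, *ednraa* went from 0.06 to −0.42 and *prdm1a* from 0.02 to −0.09. Ratios with 0 UMIs in a library were left out of this tally. Among those was *her4.2*, at 2.46 with all cells, which had 3 DMSO and 0 YM UMIs without the off-type cells. The reversed value was that of *ednrab*, which was 1.52 and became −0.67 with a threshold of 3, where few UMIs remain. With that threshold *rps27l* was at 0.28 and *trappc1* at −0.19, and *hand2* at −1.16, on the other side of 0 from its main value of 0.48. With a threshold of 1, *her9* was at 0.95. Thinning to 3500 UMIs or not thinning raised 54 of 64 shares of cells with a UMI beyond their interval.

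No paired analysis was possible because each condition is 1 library. Embryo, sort and library effects cannot be told apart from treatment. Raw counts chose the cells, so depth bears on membership. Sparse genes such as *gata6* cannot show cells that lack them, and no doublets were removed.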

Other observations

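Among the genes with few UMIs, 4 with a high YM count in the *hoxb5* cells were looked at per cell after their values were seen. All 102 UMIs of *aqp1a.1*, a water channel gene, in YM lay in 1 cell, an off-type cell, and DMSO had 0 UMIs. *fabp11a*, a fatty acid binding protein gene, had 4 UMIs in DMSO and 72 in YM, of which 66 lay in 1 off-type cell. *igfbp1a*, which encodes a binding protein of insulin-like growth factors, had 1 and 41 UMIs, of which 37 lay in 1 off-type cell. *tnc*, the extracellular matrix gene of tenascin C, was spread more widely, with 4 UMIs in 2 cells in DMSO and 36 UMIs in 8 cells in YM, 27 of them in 7 cells outside the off-type cells.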
